A study of Mus musculus with 8 samples.

Results

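The genes followed here encode the core transcription factors of the liver lineage. They are Hnf4a, the forkhead factors Foxa1, Foxa2 and Foxa3, the cut-homeodomain factors Onecut1 and Onecut2, and the leucine zipper factors Cebpa and Cebpb. The 8 genes were chosen by name, and all 15 probe sets annotated to 1 of them alone were used, of 34945 such probe sets for 18193 genes on the array. Every array carried RNA grown from Dlk-positive hepatoblasts, fetal liver cells that can give rise to hepatocytes and to the bile duct epithelium. They came from livers of Ink4a-Arf-null mouse embryos at day 14.5, so the controls lack that locus too. Cells sorted with magnetic beads were transduced with EGFP (4 control arrays) or with Bmi1, a subunit of Polycomb repressive complex 1 (4 arrays), and cultured with the growth factors HGF (50 ng/ml) and EGF (20 ng/ml). Transduced cells were purified by flow cytometry at day 28 of culture, and RNA equal to 10000 cells was amplified in 2 cycles and hybridised to Affymetrix mouse arrays. The arrays of each group are numbered 1 to 4, and the series names 4 independent experiments. Which vector and promoter drove the transgene is not given in these sources.

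The values are signal intensities on a linear scale, and the number of arrays limits their precision. Bmi1 itself read 518 ± 218 on the control arrays and 279 ± 60.01 on the arrays labelled Bmi1 (SD, n = 4 each) and was lower in 4 of 4 same-numbered pairs, as was its second probe set. Its log2 difference was -0.89 (SE 0.32, limma adjusted p = 0.465, and 0.0252 with the replicate number as a block). Whether these probe sets read the transduced sequence is not known here, and groups are named by their labels throughout. Of 11 hepatocyte and hepatoblast markers 0 were at background on all arrays. Of macrophage and mesothelial markers, too, 0 of 9 and 0 of 7 were at background on all arrays, so this criterion alone does not set the labelled cell type apart. A signal above background on 1 array is enough to meet it. The macrophage markers Itgam and Ptprc were above it on 1 array and Tyrobp on 3, but Adgre1, Cd68, Csf1r, Lyz2 and Cd14 on all 8. Alb, Afp and Ttr were above it on all 8, at control means of 4481, 5140 and 4687. Of 10 endothelial, 6 erythroid and 11 gut and pancreas markers, 3, 2 and 3 were at background on all arrays. Replicates 1 and 2 stood apart from replicates 3 and 4 in both groups. The labels name no run, scan date or batch, so "run 1" and "run 2" are names given here to those replicates from a control signal, after the values were seen. The BioC hybridisation control read 198 to 274 in run 1 and 97.0 to 119 in run 2, and each run holds both groups equally. In RNA from a mixture, fewer cells of a type and less RNA per cell cannot be told apart.

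Hnf4a is a nuclear receptor that binds the control regions of a large share of hepatocyte genes. FoxA proteins open chromatin at liver enhancers, and Foxa1 and Foxa2 together are needed for liver specification. Onecut1 (HNF6) and Onecut2 act in hepatoblasts and in bile duct development. C/EBP alpha drives metabolic genes and restrains growth of hepatocytes, while C/EBP beta answers cytokines and regeneration. These factors bind one another's promoters, and this mutual control is regarded as what keeps the hepatocyte state stable.

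Signals of Hnf4a, Foxa1 and Foxa2 were positively correlated across the arrays, as described below, although that of Hnf4a was closer to Cebpa. Stretches of their promoters that hold a FoxA or Onecut motif are shown here. A link between these motifs and the signals was not tested. Promoter windows of 250 bases before an annotated start (RefSeq, GRCm38.p6) were used for 7 of the 8 genes. Both strands were searched for letters known to be preferred by each family. The FoxA motif was TGTTTAC. That of Onecut factors was ATCAATA. For HNF4 it was CAAAGTCCA, and for C/EBP factors TTGCNNAA. The core promoter element TATAAA was searched as well. No match overlapped another. The Hnf4a stretch lies at chr2:163506607-163506810 on the plus strand, upstream of the gene. That of Foxa2 lies at chr2:148046970-148047219 on the minus strand, also upstream of the gene, and the Foxa1 stretch lies at chr12:57546234-57546263 on the minus strand, inside the gene's span before an internal start. The printed Hnf4a stretch holds the first 204 bases of its window, which ends inside the gene's span. Capitals mark the motif match.
Hnf4a: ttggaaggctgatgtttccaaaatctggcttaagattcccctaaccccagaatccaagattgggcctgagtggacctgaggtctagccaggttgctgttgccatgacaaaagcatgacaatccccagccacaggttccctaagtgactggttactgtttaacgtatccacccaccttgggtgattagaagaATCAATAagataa
Foxa2: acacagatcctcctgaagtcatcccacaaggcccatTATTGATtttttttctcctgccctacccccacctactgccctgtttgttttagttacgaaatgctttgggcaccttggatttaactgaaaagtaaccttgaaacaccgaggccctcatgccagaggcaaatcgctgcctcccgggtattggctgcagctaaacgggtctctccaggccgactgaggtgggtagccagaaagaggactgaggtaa
Foxa1: tatactgctttGTAAACAaagtgagggcca

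The Onecut motif was found 59 bases before an Hnf4a start as given, and 214 bases before a Foxa2 start in reverse complement. The windows of another Hnf4a start, inside the gene's span, and of another Foxa2 start hold none of the motifs. Of 32851 promoter windows of the same length, 1.86% hold it. The FoxA motif stands in reverse complement 141 bases before a Foxa1 start and is held by 3.17% of the windows. Windows of Foxa3 and Cebpa hold the TATA box 36 and 30 bases before their starts. Of all windows, 12.4% hold its letters anywhere in their length on either strand. A further Foxa2 start has only those letters, in reverse complement, 208 bases upstream. Neither the HNF4 nor the C/EBP motif, held by 0.384% and 9.56% of windows, was matched in the windows of the 7 genes. The gene left out was Onecut2. No window of it was searched, so whether it holds any of these motifs is not known here. A match of letters is a description of the sequence and not a binding site.

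None of the 8 factors differed between the groups by the test used. All 8 passed the level filter (the upper 60% of genes by mean signal), 4 had a higher and 4 a lower mean in the arrays labelled Bmi1, and the median log2 difference was -0.01, against -0.03 over all 10916 tested genes. The median size of the difference, whatever its sign, was 0.28 for the factors and 0.17 for all tested genes. With limma, 0 of 8 had an adjusted p under 0.05 where 0.165% of tested genes were called, and 0 had an unadjusted p under 0.05, where 7.81% did. After centring, the groups overlapped for all 8, while they did not for 5.33% of tested genes. With the replicate number as a block, 0 of 8 were called, where 3.32% of tested genes were, and 3 had an unadjusted p under 0.05, where 18% of tested genes did. The intervals bound what the arrays could have missed. The block narrowed the median standard error of the 8 differences from 0.32 to 0.17.

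**Figure D1:**
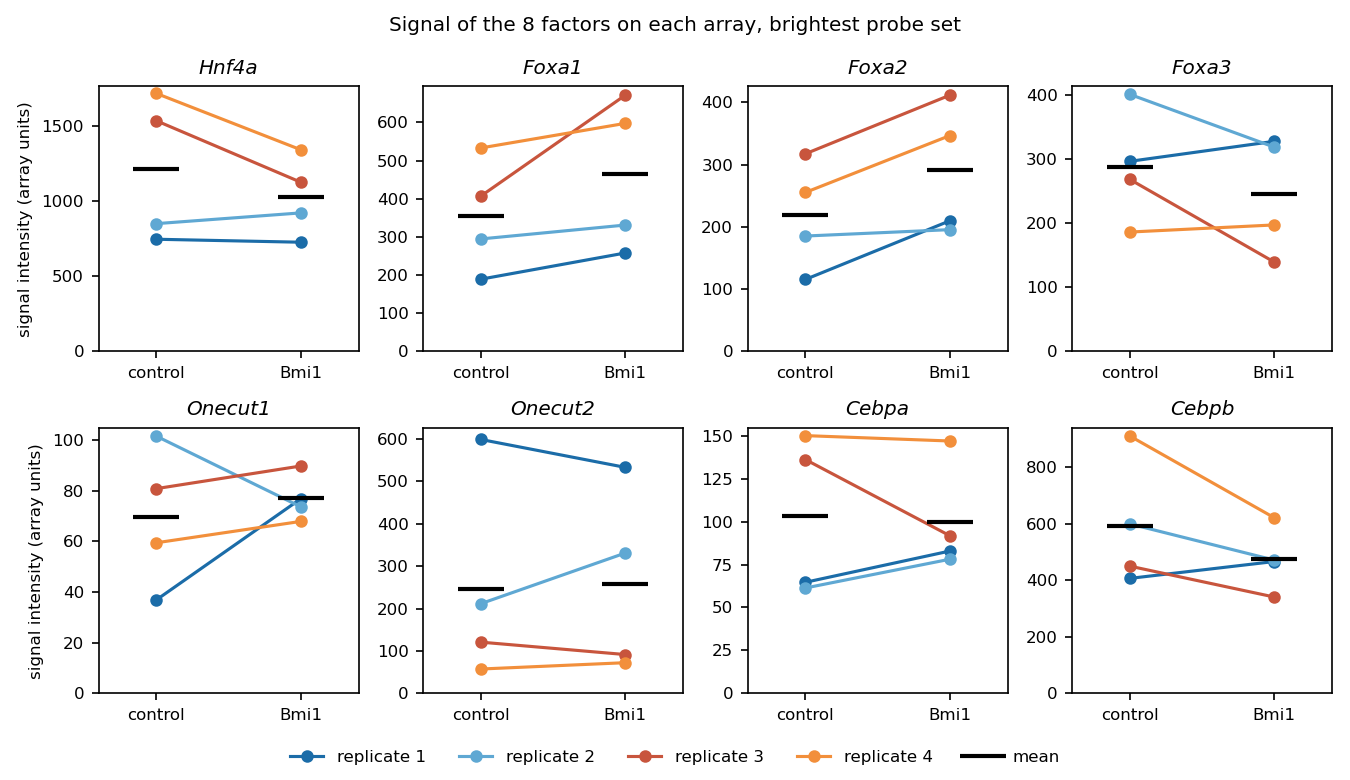
Signal intensity (linear axis from 0) of the brightest probe set of each factor, with lines joining arrays of the same replicate number and black bars for the group means (n = 4 each). For Hnf4a, Foxa1, Foxa2, Foxa3, Onecut2 and Cebpa, replicates 1 and 2 lie apart from 3 and 4, and their means differ by more than the group means do.

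Hnf4a, at its brightest probe set, read 748, 852, 1537 and 1719.5 on control arrays 1 to 4 and 728, 923, 1128 and 1344 on the Bmi1 arrays. The groups overlapped, and the Bmi1 array was the lower in 3 of 4 pairs. The log2 difference was -0.25 (SE 0.27, 95% interval -0.85 to 0.35, adjusted p = 0.950 by limma). With the replicate block its interval ran from -0.52 to 0.013 (adjusted p = 0.302). The 3 other Hnf4a probe sets also had a lower mean in the arrays labelled Bmi1. They read 263 ± 85.7 against 205 ± 21.6, 136 ± 36.2 against 107 ± 25.8, and 19.5 ± 7.24 against 16.6 ± 4.63 (SD, n = 4). Tested by themselves, 0 of the 4 passed in limma, where 0.0444% of the 27022 probe sets tested by themselves did. With the block again 0 passed (adjusted p from 0.457 to 0.813), where 1.78% did.

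Foxa1 read 189, 295, 407 and 533 on control arrays 1 to 4 and 258, 331, 671 and 598 on the Bmi1 arrays. It was the higher in the Bmi1 array of each of the 4 pairs, as were 11.4% of tested genes, although the groups overlapped. The log2 difference was 0.30 (SE 0.35, interval -0.49 to 1.08, limma adjusted p = 0.959), and with the block the interval was 0.0022 to 0.60 (adjusted p = 0.274). Foxa2, its closest relative, read 116, 185, 317 and 255 against 209.6, 195, 411 and 346. Its signal was higher in 4 of 4 pairs before and 3 of 4 after centring, since the members of pair 2 were nearly level. The log2 difference was 0.36 (SE 0.32, interval -0.36 to 1.07, adjusted p = 0.947), and 0.017 to 0.70 with the block (adjusted p = 0.256). The whole interval lay above 0 for both genes with the block, at unadjusted p of 0.0487 and 0.0419, and neither passed over all genes.

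Foxa3, which binds the same motif at liver genes, had its mean on the other side. Control arrays 1 to 4 read 297, 402, 269 and 187, and the Bmi1 arrays read 328, 319, 139.6 and 198. The array labelled Bmi1 was higher in 2 pairs and lower in 2. The log2 difference was -0.33 (SE 0.34, interval -1.10 to 0.44, limma adjusted p = 0.950, and 0.418 with the block). Whether FoxA members shifted unequally was tested on the log2 ratio within each array. Foxa1 over Foxa3 was higher by 0.63 and Foxa2 over Foxa3 by 0.69 in the arrays labelled Bmi1, each in 4 of 4 pairs. By the two-sided exact permutation test over 70 arrangements p was 0.429 and 0.371, and 0.810 for both after adjustment over 5 ratios. With arrays exchanged within pairs only, the exact p was 0.125 for both, the smallest that 4 pairs allow. Foxa1 over Foxa2 differed by -0.06 (exact permutation p = 0.886).

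**Figure D2:**
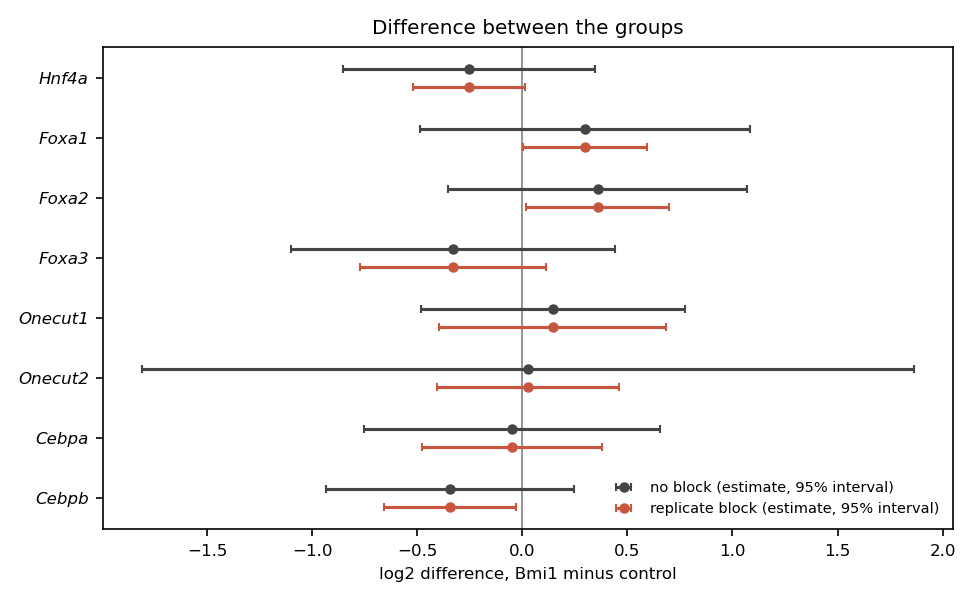
Log2 difference between the arrays labelled Bmi1 and the control arrays for each factor, with its 95% interval from limma without a block (grey) and with the replicate number as a block (red). Every grey interval spans 0, that of Onecut2 being the widest (-1.81 to 1.86), and 0 of 8 differences passed after adjustment in either model.

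Onecut1 read 36.9, 101, 80.8 and 59.4 on control arrays 1 to 4 at its brighter probe set, and 76.8, 73.6, 89.7 and 67.8 on the Bmi1 arrays. The Bmi1 arrays lay within the range of the controls. The log2 difference was 0.14 (SE 0.28, interval -0.48 to 0.77, limma adjusted p = 0.982, and 0.794 with the block), and without control 1 it was -0.08. The dimmer Onecut1 probe set read 8.80, 19.7, 20.2 and 23.2 against 32.4, 35.8, 35.9 and 31.5. Here the groups did not overlap, which held for 3.76% of those 27022 probe sets. It was the single member probe set of 15 to do so. Its log2 difference was 0.80 (SE 0.31, interval 0.12 to 1.49), with a limma adjusted p of 0.805 and 0.172 with the block, so it did not pass. The probe sets carry the same transcript accession. Which part of the transcript each reads is not known here.

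Onecut2 had the widest range of the 8, and it lay between replicates and not between groups. Its brightest probe set read 599, 212, 121 and 57.5 on control arrays 1 to 4 and 533, 331, 91.6 and 72.4 on the Bmi1 arrays, a 10.4-fold range. Both groups were high on replicates 1 and 2 and low on 3 and 4. The log2 difference between groups was 0.03 (SE 0.82, interval -1.81 to 1.86, limma adjusted p = 0.999), so without a block a rise of up to 3.64-fold lay inside the interval. With the replicate block the SE was 0.19 and the interval -0.41 to 0.46 (adjusted p = 0.960). The 2 other Onecut2 probe sets spanned 8.04-fold and 7.95-fold, and pairs of the 3 probe sets correlated at 0.990 to 0.994 over the 8 arrays. The log2 ratio of Onecut1 over Onecut2 differed by 0.12 between groups (exact permutation p = 0.971).

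**Figure D3:**
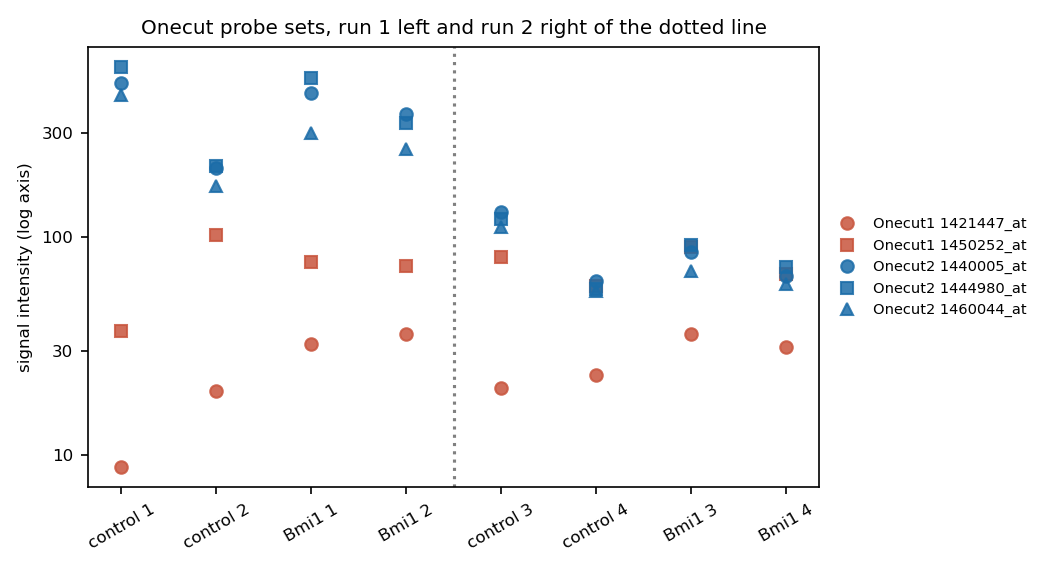
Signal intensity (log axis) of the 2 Onecut1 and 3 Onecut2 probe sets on each array, with run 1 on the left and run 2 on the right. The Onecut2 probe sets run parallel and fall from 170 to 599 in run 1 to 56.2 to 130.4 in run 2, while the dimmer Onecut1 probe set is higher on all 4 Bmi1 arrays than on any control.

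Cebpa read 64.7, 61.3, 136 and 150.01 on control arrays 1 to 4 and 82.8, 78.1, 91.8 and 147 on the Bmi1 arrays. The arrays labelled Bmi1 were higher in the 2 pairs of run 1 and lower in those of run 2. The log2 difference was -0.05 (SE 0.31, interval -0.76 to 0.66, limma adjusted p = 0.995, and 0.917 with the block), and its sign turned without centring (0.02) and with centring on all probe sets (0.08). Cebpb read 407, 600.2, 451 and 911 against 467, 472, 341 and 622, and was lower in 3 of 4 pairs. Its log2 difference was -0.35 (SE 0.26, interval -0.94 to 0.24, adjusted p = 0.915), and -0.66 to -0.033 with the block (unadjusted p = 0.0345, adjusted p = 0.234). The other Cebpb probe set read 70.8 ± 33.2 and 55.8 ± 11.7 (SD, n = 4), and its adjusted p was 0.604 with the block.

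Cebpb was highest on replicate 4 of both groups. The summed signal of 9 macrophage markers was also highest there, at 2819 on control 4 and 2483 on Bmi1 4 against 549 to 1472 on the other 6 arrays. That sum was carried by 1 gene, Cd14, which read 2425 and 1959.6 on those arrays. The other 8 markers summed to 394 and 524 there and were highest on control 2 (727). Of the 9, 0 were at background on all arrays, and their part in the Cebpb signal was not tested. The ratio of Cebpa over Cebpb was higher by 0.30 on the log2 scale in the arrays labelled Bmi1, in 3 of 4 pairs, and did not pass (exact permutation p = 0.486).

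Run, which is no condition of the study, separated 6 of the 8 factors more than the group did. For Cebpb and Onecut1 the group difference was the larger. This comparison was chosen after the values were seen. With the group in the model, 6 of 8 factors differed between run 2 and run 1 in limma, where 24.5% of tested genes did. For those 6 the arrays of the runs did not overlap, as for 25.3% of tested genes. Foxa1 (log2 difference 0.94, SE 0.16, adjusted p = 0.00634), Foxa2 (0.82, SE 0.17, 0.0104), Cebpa (0.73, SE 0.20, 0.0298) and Hnf4a (0.71, SE 0.13, 0.00693) were higher in run 2. Onecut2 was 4.84-fold lower there (-2.28, SE 0.36, 0.00455), and Foxa3 was lower by 1.84-fold (-0.88, SE 0.19, 0.0113). Onecut1 (0.0081, interval -0.61 to 0.63) and Cebpb (0.08, interval -0.51 to 0.66) did not pass.

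The run took 70.8 to 83.2% of the sum of squares over the 8 arrays for these 6 genes, which were picked by that difference, and the group 0.012 to 13.7%. For the other two the group took more, at 18.3% against 0.865% for Cebpb and 3.86% against 0.012% for Onecut1. The Hnf4a difference rested on the brightest probe set. Tested by themselves, its others differed by 0.43, 0.23 and 0.08 (limma adjusted p = 0.170, 0.521 and 0.868), and with the probe sets averaged Hnf4a did not pass (0.32, adjusted p = 0.222). Cebpa did not pass without control 1, 2, 3 or 4, Bmi1 2 or Bmi1 4 (adjusted p 0.0559 to 0.0922). When arrays were centred on all probe sets, the run difference of all tested genes had a median of 0.53, and there Foxa3 did not pass (-0.35, adjusted p = 0.149). Onecut2 stayed below 0 and passed in all 16 other settings run.

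**Figure D4:**
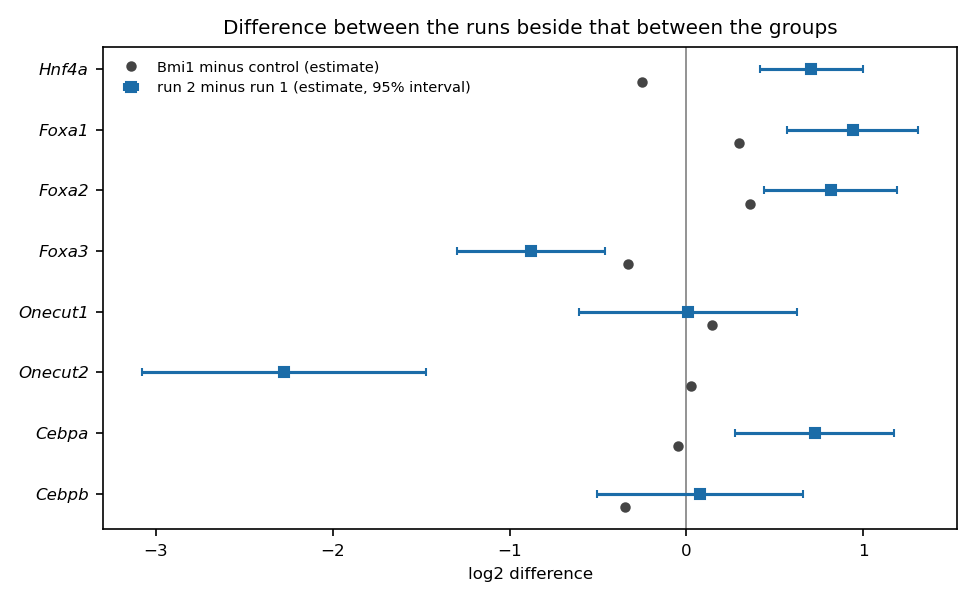
Log2 difference between run 2 and run 1 for each factor (squares, with 95% intervals from limma with the group in the model) beside the difference between the groups (circles). Onecut2 and Foxa3 lie below 0 and Foxa1, Foxa2, Cebpa and Hnf4a above it, each farther from 0 than its difference between groups.

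Marker sums of other cell types differed between the runs in part. Stellate and fibroblast markers, 14 measured with Lrat at background on all arrays, summed to 16732, 10168, 5214 and 9296 on control 1, control 2, Bmi1 1 and Bmi1 2, and to 3998 to 6693 in run 2. On Bmi1 1, where Onecut2 read 533, that sum was within the range of run 2. Hepatocyte and hepatoblast markers summed to 24046 to 31745 in run 1 and 33567 to 44333 in run 2. The Gapdh ratio of the 3′ to the 5′ probe set did not follow the run. It was 3.10 on control 1 alone and 1.65 to 1.97 on the other arrays. The part of these measures in the run difference of the factors was not tested. Whether the group difference depended on the run was tested as an interaction. It was called for 0 genes in limma, with 299 at an unadjusted p under 0.05, and the smallest unadjusted p among the 8 factors was 0.121.

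Across the 8 arrays, after centring, Foxa1 and Foxa2 had a Pearson correlation of 0.905, and Hnf4a and Cebpa one of 0.892. Hnf4a correlated at 0.717 with Foxa1 and 0.603 with Foxa2. These Hnf4a values are those of its brightest probe set. Before centring, that probe set correlated with the other Hnf4a probe sets at 0.719, 0.455 and 0.048. Onecut2 ran against Foxa1 (-0.946), Hnf4a (-0.867) and Foxa2 (-0.808). These values are descriptions over 8 arrays that share 2 runs and 4 replicate numbers. Among all tested genes, those most like Hnf4a were the complex I subunit gene Ndufb11 (0.970) and Selenof (0.969). For Foxa1 they were the deubiquitinase gene Bap1 (0.993) and Cyb5r1 (0.993), and for Foxa2 Tmem102 (0.989) and the retinoid X receptor gene Rxrb (0.980). Gsto1 (0.984) and Btg1 (0.979) were most like Foxa3, Tsr3 (0.947) and Adam11 (0.936) most like Onecut1, and the cyclin gene Ccnt2 (0.994) and Arid4a (0.994) most like Onecut2. Cebpa had Rpp30 (0.986) and Ifitm2 (0.971) nearest, and Cebpb had Hfe (0.960) and Ccdc184 (0.960).

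Genes that the factors are known to bind and activate were lower in the arrays labelled Bmi1, beside factors that did not pass. Over 4 lists of targets, 35 distinct genes were tested, and 34 had a lower mean, where 54.1% of all tested genes did. Their median log2 difference was -1.17. Without the block limma called 2 of them lower, Pck1 and Abcc2, where 0.055% of tested genes were called lower. With the replicate block 15 fell and 1 rose, where 1.95% and 1.36% of tested genes did. The lists were drawn up with earlier results of these data known, so these counts are no independent evidence of their direction, and 12 targets stand in more than 1 list.

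Of 19 tested Hnf4a targets, 18 were lower, with a median of -1.09, and with the block 9 fell and 1 rose. The largest difference was that of the cytochrome Cyp3a11, from 2307.5 ± 499 to 348 ± 229 (SD, n = 4) (log2 difference -3.08, SE 0.53 without the block). Its adjusted p in limma was 0.0141 with the block and 0.0657 without it. The bile acid uptake carrier Slc10a1 (-2.09, 0.0201 with the block and 0.384 without), the lipoprotein gene Apoc3 (-1.63, 0.0246 and 0.799) and the glucose phosphatase gene G6pc (-1.55, 0.0114 and 0.233) fell with the block. The cadherin gene Cdh1 rose with it (0.51, 0.0254 and 0.312).

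Pck1, the gluconeogenic enzyme in all 4 target lists, read 127, 119.95, 111.5 and 136 on control arrays 1 to 4 and 23.2, 49.1, 27.7 and 52.4 on the Bmi1 arrays. The groups were far apart, and limma put the difference at -1.74 on the log2 scale (SE 0.26, adjusted p = 0.0443). The call without the block was lost in all 8 fits that left out 1 array and in 16 of the 18 alternatives that use no block (adjusted p 0.0339 to 0.334), and with probe sets averaged the difference was -0.68. All 11 tested FoxA targets had a lower mean, with a median of -0.73. That median was -0.34 without control 1, -0.26 without Bmi1 3 and -0.38 without Bmi1 4, and -1.14 without control 4, -1.27 without Bmi1 1 and -1.37 without Bmi1 2. Of these targets 2 fell without the block, Pck1 and the export pump gene Abcc2 (-1.88, SE 0.26, adjusted p = 0.0410). The Abcc2 call was lost in the same 8 fits and in 14 of those 18 alternatives (adjusted p 0.0339 to 0.237). The bile salt export pump gene Abcb11 fell with the block (-2.10, 0.0177, and 0.267 without). The classic FoxA targets Alb (-0.16), Afp (-0.14) and Ttr (-0.15) did not pass in either model (adjusted p of 0.430 or more). These 3 were picked out after their values were seen.

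All 15 tested C/EBP targets had a lower mean, with a median of -1.55, which was -0.86 without Bmi1 3, and 6 fell with the block. Among them were genes of secreted acute phase proteins. Saa1 had a difference of -3.13 (limma adjusted p 0.0202 blocked, 0.133 unblocked), Orm1 one of -2.68 (0.0159 and 0.163) and Saa3 one of -1.62 (0.0202 and 0.947). Of 5 tested Onecut targets 4 were lower, with a median of -0.57, which was -0.34 without control 3, -0.29 without Bmi1 3 and -0.90 without Bmi1 2, and with the block 2 fell, G6pc and Pck1, and 1 rose, Cdh1. All 4 medians were below 0 in each run taken alone. In run 1 they were -0.95 (Hnf4a), -0.27 (FoxA), -0.94 (C/EBP) and -0.23 (Onecut), and in run 2 -1.25, -1.65, -1.65 and -1.25.

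**Figure D5:**
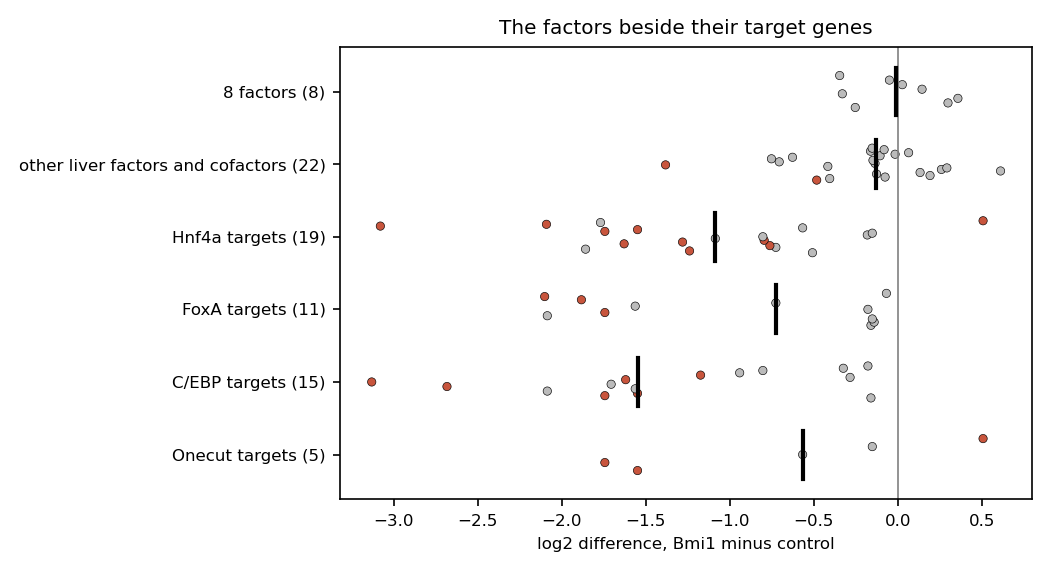
Log2 difference between arrays labelled Bmi1 and control for the 8 factors, other liver factors and cofactors, and 4 lists of target genes, with the number tested in brackets. Each point is a gene, red where the adjusted p with the replicate block was under 0.05, and black bars are medians, from -0.01 for the factors to -1.55 for C/EBP targets.

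Other liver transcription factors and the cofactors that the family works with numbered 22 tested genes. Of them 16 were lower and 6 higher, where 54.1% of all tested genes were lower. Their median log2 difference was -0.13, and 0.001 with centring on all probe sets. By limma 0 were called without the block. With the replicate block 2 fell, where 1.95% of tested genes did. The bile acid receptor gene Nr1h4 read 194 ± 94.4 and 91.5 ± 69.4 (-1.38, limma adjusted p = 0.0317, and 0.656 without the block). The C/EBP family member Cebpd read 505, 467, 489 and 861 on control arrays 1 to 4 and 408, 324, 378 and 631 on the Bmi1 arrays. It was lower in 4 of 4 pairs and, like Cebpb, highest on replicate 4 of both groups (-0.48, SE 0.10 with the block, adjusted p = 0.0484, and 0.747 without). Its adjusted p with the block lies close to the threshold.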

How the data were processed

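The authors deposited signal intensities on a linear scale for 45101 probe sets on 8 Affymetrix arrays. Per the labels' protocols, cells were cultured, sorted and their RNA amplified before hybridisation. No source used here gives the software that made the values. Each deposited array has a mean of 100.0 after trimming 2% at each end, so arrays were already scaled.

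Probe sets with 1 gene symbol in the platform annotation were kept, and each gene was read from its probe set of highest mean. Values were taken as log2(value + 3.78), so fold changes of dim genes are understated. Arrays were centred on the median of the tested genes, those above the 40th percentile of mean signal (10916 genes). The test between groups was limma's (version 3.58.1, R 4.3.3; lmFit, then eBayes with trend), with Benjamini-Hochberg adjustment over all tested genes at 0.05. Background was the 95th percentile of 27 Bacillus control probe sets. The model without a block was run on simulated arrays with independent noise and large changes. The replicate block and changes of the size seen for the factors were not simulated.

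Same-numbered arrays deviated together, with correlations of 0.53, 0.49, 0.50 and 0.68, to which the runs contribute. Differently numbered arrays of the same run gave 0.48 (control 1 with Bmi1 2), 0.12 (control 2 with Bmi1 1), 0.28 (control 3 with Bmi1 4) and 0.36 (control 4 with Bmi1 3). Those of different runs were all below 0. The numbers were taken to pair the arrays, though the labels do not say so. How far the pairing goes beyond the run was not tested. Runs were told apart by the BioC control, above or below 150. Ratios of related factors were tested by exact permutation. The named genes are the 8 factors, Bmi1, the 2 genes most like each factor, and from each list up to 4 called without and 4 called with the block, by size. Alternatives covered centring, quantile normalisation, pseudocount, filter, probe set rule, run, block and each array left out. The factors and lists were chosen with earlier results of these data known.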

Additional observations from a re-analysis of the deposited data

How the results depend on the processing

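None of the 8 factors was called between groups in limma in any of the 28 alternatives, and the smallest adjusted p was 0.0739 (Cebpb, with the replicate block and without replicate 1). Over all settings the log2 difference stayed on one side of 0 for Hnf4a (-0.46 to -0.05), Foxa1 (0.06 to 0.52), Foxa2 (0.12 to 0.55), Foxa3 (-0.54 to -0.07) and Cebpb (-0.53 to -0.14). Cebpa turned within run 1 (0.25), without centring (0.023) and with centring on all probe sets (0.082), the last pair alike with the replicate block, with that block and without replicate 3 (0.14), and ranged from -0.24 to 0.14 with each array left out. Onecut2 turned within run 2 (-0.092), with probe sets averaged (-0.035), and with the block without replicate 2 (-0.15) or 4 (-0.059), and ranged from -0.51 to 0.64 with each array left out. Onecut1 was 0.50 with probe sets averaged, ranged from -0.082 to 0.36 with each array left out, and was -0.10 with the block and without replicate 1. Of the 5 ratios of related factors, 0 passed in any setting. Foxa1 over Foxa2 turned within run 2 (0.037), and without control 4 or Bmi1 1, and ranged from -0.17 to 0.062 with each array left out. Onecut1 over Onecut2 ranged from -0.73 to 0.62, turning without control 1, Bmi1 3 or Bmi1 4. The Onecut1 run difference turned at pseudocount 16 (-0.0083) and without control 1, control 3, Bmi1 2 or Bmi1 3 (range -0.26 to 0.26), and that of Cebpb without control 1, control 4 or Bmi1 4 (range -0.16 to 0.29). Of all tested genes 18 were called (12 higher, 6 lower), against 362 with the replicate block (149 and 213), 191 with run as a block, 28 without centring, 7 after quantile normalisation, 30 at pseudocount 16 and 0 within either run (824 and 1011 at an unadjusted p under 0.05). With centring on all probe sets the split was 6 higher and 7 lower. The count ran from 0 to 20 with each array left out. With the block it was 407 without centring (221 higher, 186 lower), 474 with centring on all probe sets (277 and 197), 340 after quantile normalisation (162 and 178), 481 over single probe sets, and 177, 133, 91 and 200 without replicate 1, 2, 3 and 4. Among the genes of the target and cofactor lists 2 were called, against 18 with the replicate block, 10 with run as a block, 1 with centring on all probe sets, at pseudocount 1 or with probe sets averaged, and 0 after quantile normalisation, with no filter, over single probe sets or within a run, and 0 to 1 with each array left out. With the block they numbered 17 without centring, 19 with centring on all probe sets, 16 after quantile normalisation, 17 over single probe sets, and 10, 8, 6 and 14 without replicate 1, 2, 3 and 4. The causes were not tested. Alternatives that combine the block with another choice were added after seeing the data.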

Other observations

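Markers of other cell types were followed on the same arrays, from lists drawn up with earlier results of these data known. Over all tested genes 54.1% had a lower mean in the arrays labelled Bmi1, and with the replicate block 1.95% were called lower and 1.36% higher. Of 7 tested biliary markers 6 had a higher mean in the arrays labelled Bmi1 (median log2 difference 0.27), and 1 rose with the replicate block, the epithelial adhesion gene Epcam, from 135 ± 26.1 to 293 ± 93.04 (SD, n = 4, limma adjusted p = 0.0222, and 0.173 without the block). Summed biliary signal ran from 5445 to 6817 in the controls and from 7216 to 7815 in the arrays labelled Bmi1, without overlap. Summed mesothelial signal (845 to 1047 against 1119.6 to 1184) and summed endothelial signal (129 to 242 against 247 to 355) did not overlap either. Both were higher in the arrays labelled Bmi1. The mesothelial marker with the highest mean was Krt19, which is also in the biliary list (547 ± 174 and 811 ± 46.1). Of 5 tested mesothelial markers 3 were lower, among them Msln and Wt1. The endothelial marker with the highest mean was Egfl7 (126 ± 52.3 and 249 ± 62.0). With Krt19 taken out of the mesothelial sum, or Egfl7 out of the endothelial sum, the remaining signal of the groups overlapped. Of 11 hepatocyte and hepatoblast markers 10 were lower (median -0.36), and with the block 2 fell, the antithrombin gene Serpinc1 (-2.31, adjusted p = 0.0128) and the apolipoprotein gene Apoa2 (-1.24, adjusted p = 0.0397).

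Of 12 tested stellate and fibroblast markers 11 were lower (median -0.99). That median was -1.40 within run 1 and -0.13 within run 2, and -0.52 without control 1. With the block the smooth muscle actin gene Acta2 fell (-1.11, limma adjusted p = 0.0405) and Reln rose (1.55, adjusted p = 0.0078). Mesothelial markers had a median of -0.17 over 5 tested, which was -0.74 within run 1 and 0.32 within run 2. With arrays left out in turn it ranged from -0.65 (without Bmi1 3) to 0.34 (without Bmi1 1) and was 0.33 without control 1, so it has no settled sign. Of these markers Msln was lower with the block (-1.25, adjusted p = 0.0493). Pecam1, Tek and Tie1 were at background on all arrays, and the 1 endothelial marker tested, Egfl7, rose with the block (0.95, adjusted p = 0.0207). The 4 tested macrophage markers (median -0.39), the 1 erythroid marker Epor (0.98) and the 3 tested gut and pancreas markers (median -0.72) gave 0 calls in limma with or without the block. Of these 8 genes, 1 had an unadjusted p under 0.05 without the block (Epor) and 3 with it (Epor, Vil1 and Tff3). Without the block no marker of these 8 lists was called.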
